A study of Mus musculus with 8 samples.

Results

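Rln3, Ecm1, Neb, Ncmap and Capg are 5 genes seldom discussed in T cells. They were selected on their measured RNA counts, which ran higher in meningeal CD4+ T cells that also held a Foxp3 transcript, so that difference is a description here and supports nothing. They are 5 of the 55367 gene symbols in the count tables. The meningeal cells were sorted as CD45+ CD3+ CD4+ from perfused mice (treatment given as N/A) in 2 replicates, replicate 1 of the genotype Foxp3-GFP and replicate 2 of the genotype B6.WT, so replicate and genotype cannot be told apart. Each replicate had RNA, T-cell receptor and hashtag libraries, where a hashtag is a barcoded antibody that marks the sample a cell came from. Hippocampal CD45- Thy1- cells came from Foxp3-DTR- and Foxp3-DTR+ mice, both given diphtheria toxin, with 2 mice pooled in the 1 library of each genotype. In the Foxp3-DTR design the toxin kills cells that express Foxp3. The ages and the number of mice behind each meningeal replicate were not given in the sources used here.

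Foxp3 is the lineage transcription factor of regulatory T cells (Treg cells), which restrain other immune cells and live in many tissues, the meninges among them. Helios (Ikzf2), CTLA-4 (Ctla4), the interleukin-2 receptor alpha chain (Il2ra) and OX40 (Tnfrsf4) are commonly high in Treg cells, and Klrg1 marks an effector subset of them. None of the 5 genes is a textbook Treg gene. Rln3 encodes relaxin-3, a secreted peptide best known as a neuropeptide. Ecm1 encodes extracellular matrix protein 1, a secreted glycoprotein. Capg encodes a gelsolin-family protein that caps the barbed ends of actin filaments. Neb encodes nebulin, a giant protein of skeletal-muscle thin filaments. Ncmap encodes a membrane protein of non-compact myelin in Schwann cells.

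The genes lie on different chromosomes (GRCm38, GENCODE M21). Rln3 is at chr8:84042929-84045000 on the minus strand, Ecm1 at chr3:95734147-95739569 on the minus strand, Neb at chr2:52136647-52378474 on the minus strand, Ncmap at chr4:135369576-135398227 on the minus strand, and Capg at chr6:72544391-72562983 on the plus strand. RefSeq promoter windows (GRCm38.p6) were at hand for 4 of the 5 genes, Neb not among them. The 250 bases before the RefSeq start were searched on both strands for 6 short motifs. These were the core promoter letters TATAAA, the forkhead letters TGTTTAC, the letters AGATAA bound by GATA factors, the RUNX letters TGTGGT, the AP-1 letters TGANTCA and the STAT letters TTCNNNGAA. The Rln3 and Ecm1 windows are shown because they held matches, which are in capitals. The Ncmap windows, 1 for each of 2 starts, and the Capg window held none of the 6.
Rln3 promoter, chr8:84044980-84045229, minus strand: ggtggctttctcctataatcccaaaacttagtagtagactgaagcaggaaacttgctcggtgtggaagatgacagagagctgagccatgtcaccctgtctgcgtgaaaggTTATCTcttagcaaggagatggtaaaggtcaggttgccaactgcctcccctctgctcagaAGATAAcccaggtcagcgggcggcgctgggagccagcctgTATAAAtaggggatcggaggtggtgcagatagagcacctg
Ecm1 promoter, chr3:95739570-95739819, minus strand: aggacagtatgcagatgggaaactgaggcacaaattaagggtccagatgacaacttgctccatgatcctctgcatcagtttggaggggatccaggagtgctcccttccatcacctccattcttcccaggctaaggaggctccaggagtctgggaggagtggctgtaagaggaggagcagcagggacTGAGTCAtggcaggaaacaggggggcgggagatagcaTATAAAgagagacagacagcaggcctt
In Rln3 the capitals mark TATAAA, beginning 40 bases before the start, and the GATA letters at 140 bases (as TTATCT, the other strand) and at 80 bases. In Ecm1 they mark TGANTCA at 64 bases and TATAAA at 27 bases. Over 32851 promoter windows of the same length, 12.4% held TATAAA, 3.17% TGTTTAC, 9.99% AGATAA, 14.05% TGTGGT, 6.75% TGANTCA and 7.02% TTCNNNGAA. A match is a run of letters, and the forkhead run was in none of the windows of these 4 genes, which says nothing of Foxp3 binding.

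A unique molecular identifier (UMI) counts 1 captured RNA molecule, and levels are given as CPM, the UMIs of a gene summed over a group of cells and divided by all UMIs of that group, times 1000000. Replicate 1 gave 1796 CD4 T cells, 201 of them with a Foxp3 UMI, and replicate 2 gave 4281, of them 702 with a Foxp3 UMI. These include 95 and 626 cells of an NK or ILC-like cluster led by natural killer receptor genes such as Klrk1 and Klrb1c. The rule kept that cluster because NK or ILC was not an excluded name and its CD4 T-cell markers were at least 0.5 of their median over clusters. At 4951 CPM they lay within the 4053 to 6172 CPM of the other CD4 T clusters. Cd3e was in 95.8% and 91.7% of its cells. A T-cell receptor beta (TRB) chain was in 90.5% and 71.9% of them, against 86.4% and 68.1% in the other CD4 T clusters. Its name thus refers to receptor genes and not to cells without a T-cell receptor. The libraries held 60890248 and 68830571 UMIs. Cells with a Foxp3 UMI were deeper, with a median of 4394 versus 2958 UMIs in replicate 1 and 1961.5 versus 1697 in replicate 2. Their hashtag margin, the count of a cell's hashtag over that of the next, was more often under 5 (41.3% against 9.91%, and 36.8% against 19.4%). Among cells with a TRB chain, 2 chains, a sign that a barcode may hold more than 1 cell, were found more often beside Foxp3 (31.9% against 9.06%, and 19.7% against 11.03%). Cd3e, a chain of the T-cell receptor complex, was at 1319 versus 1309 CPM in replicate 1 and 1377 versus 1376 CPM in replicate 2. Intervals in brackets are exact 95% intervals and cover counting error only.

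All 5 genes were higher beside Foxp3 in both replicates, by 2.5 to 5.5 times, and 4 of them were found in a minority of cells. Rln3 was at 82.2 CPM [65.3 to 102] in cells with a Foxp3 UMI and 23.3 CPM [19.4 to 27.9] in cells without in replicate 1, and at 113 CPM [97.7 to 129] versus 25.1 CPM [21.6 to 29.0] in replicate 2. Ecm1 was at 56.9 CPM [42.9 to 73.8] versus 15.3 CPM [12.1 to 19.0] in replicate 1 and 86.5 CPM [73.4 to 101] versus 21.04 CPM [17.8 to 24.7] in replicate 2. Both secreted products had the higher Foxp3-positive level in replicate 2, with intervals of the replicates that overlapped.

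Neb was at 85.3 CPM [68.0 to 106] versus 15.5 CPM [12.3 to 19.3] in replicate 1 and 45.2 CPM [35.9 to 56.2] versus 11.3 CPM [8.96 to 14.03] in replicate 2. Ncmap was at 80.2 CPM [63.5 to 99.96] versus 17.4 CPM [14.02 to 21.4] in replicate 1 and 39.1 CPM [30.4 to 49.4] versus 11.8 CPM [9.46 to 14.6] in replicate 2. For both of these structural genes the Foxp3-positive level was higher in replicate 1, with intervals of the replicates that did not overlap. Capg was at 814 CPM [759 to 873] versus 295 CPM [281 to 310] in replicate 1 and 548 CPM [514 to 583] versus 216 CPM [206 to 227] in replicate 2. The intervals of cells with and without Foxp3 did not overlap for any of the 5 genes in either replicate.

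**Figure D1:**
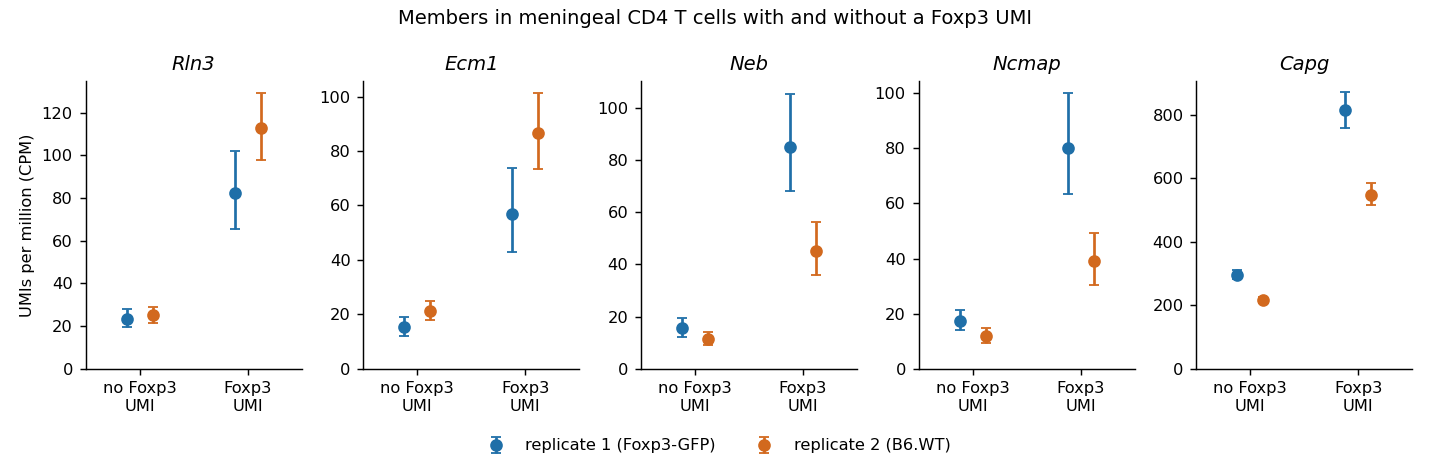
CPM of each gene (y axes, each with its own scale from 0) in CD4 T cells without and with a Foxp3 UMI, replicate 1 in blue and replicate 2 in orange; bars are exact 95% counting intervals. Every point with Foxp3 lies above both points without it, Rln3 at 82.2 and 113 versus 23.3 and 25.1 CPM.

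As log2 ratios of the 2 levels (1 UMI added to each sum), averaged over the replicates, the difference was 2.23 for Neb (SD 0.32, n = 2), 1.99 for Rln3 (SD 0.24), 1.97 for Ecm1 (SD 0.10), 1.97 for Ncmap (SD 0.34) and 1.40 for Capg (SD 0.09). The genes that define the other splits had ratios of 1.67 (Ikzf2), 1.94 (Ctla4) and 1.85 (Klrg1) in the same cells. With edgeR on the 4 sums, 0% of 10795 genes passed an adjusted p of 0.05 without the replicate as a block (0 genes, 369 at an unadjusted p under 0.05, 22 of 6818 with DESeq2), and 5.56% with it, all 5 genes among them. Without the block and without a filter on low counts, edgeR called 0.664% of 21228 genes, again with all 5. Because this contrast chose the genes, those calls are given with no weight. With the NK or ILC-like cluster left out, the mean log2 ratios were 2.09 for Neb, 1.88 for Rln3, 1.91 for Ecm1, 1.82 for Ncmap and 1.36 for Capg.

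Detection was sparse for 4 of the genes. In replicate 1, Rln3 had a UMI in 18.4% of cells with Foxp3 (37 cells) and 3.39% of cells without, Ecm1 in 15.9% and 3.95%, Neb in 26.4% and 3.76%, and Ncmap in 25.4% and 4.58%. In replicate 2 the shares were 13.96% and 3.8% for Rln3, 15.8% and 3.55% for Ecm1, 9.26% and 1.65% for Neb, and 8.69% and 2.24% for Ncmap. Capg was found in 82.1% and 37.4% of cells in replicate 1 and in 57.3% and 27.3% in replicate 2. Its share in the cells without Foxp3 was thus higher than the share of any of the other 4 in the cells with it. In the Th1-like cluster 5 of the clustering described next Rln3 had a UMI in 0.493% and 2.05% of cells, Ecm1 in 1.97% and 2.26%, Neb in 1.23% and 0.821%, Ncmap in 1.23% and 1.85%, and Capg in 26.1% and 20.1%, at a median of 2978 and 1612 UMIs.

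Read the other way, most cells with a UMI of one of these genes had no Foxp3 UMI. Foxp3 was found in 40.7% and 41.9% of Rln3-positive cells, 33.7% and 46.6% of Ecm1-positive cells, 46.9% and 52.4% of Neb-positive cells, 41.1% and 43.3% of Ncmap-positive cells, and 21.7% and 29.2% of Capg-positive cells (replicates 1 and 2), where 11.2% and 16.4% of all CD4 T cells held it. Neb in replicate 2 was the exception to that majority. Foxp3 itself is a low-count transcript, at 326 CPM and 626 CPM in the cells selected for having it, so a cell without a Foxp3 UMI need not lack Foxp3 RNA.

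Clusters group the meningeal cells by many genes at once. Foxp3 was not kept out of the clustering, and it is one of the markers by which clusters were named Treg-like. The 5 genes were among those used to cluster, so their levels by cluster are a description. Treg-like cluster 11 held 187 and 640 cells and was led by Foxp3, Ikzf2 and Rln3. Treg-like cluster 2 held 223 and 100 cells and was led by Gzmb, Il10 and Ctla4, which encode a cytotoxic granule protease, a suppressive cytokine and an inhibitory receptor. In cluster 2, 58.2% of cells had a hashtag margin under 5 and 42.5% of those with a TRB chain had 2, against 32.3% and 18.4% in cluster 11. Foxp3 had a UMI in 40.1% and 57.3% of cells of cluster 11, and in 37.2% and 27.0% of cells of cluster 2.

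Rln3 had its highest level in cluster 11, at 206 CPM [170 to 248] and 145 CPM [126 to 165], against 48.8 and 41.6 CPM in cluster 2 and 1.59 to 29.5 CPM (replicate 1) or 13.8 to 47.9 CPM (replicate 2) in the other CD4 T clusters of at least 30 cells. Ncmap was at 121 CPM [93.9 to 154] and 64.8 CPM [52.6 to 79.0] in cluster 11, at 52.0 and 11.3 CPM in cluster 2, and between 2.75 and 22.1 CPM elsewhere. For both genes the interval of cluster 11 overlapped that of no other such cluster in either replicate. Ecm1 was at 66.9 CPM [47.1 to 92.3] and 102 CPM [86.4 to 119] in cluster 11 and at 36.8 and 41.6 CPM in cluster 2. Its levels elsewhere ran from 5.33 to 22.0 CPM in replicate 1 and from 7.10 to 49.96 CPM in replicate 2, the last in the interferon-stimulated-like cluster 12. The intervals of the 2 Treg-like clusters overlapped for Ecm1 in replicate 1.

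Neb was divided differently between the replicates. It was at 70.6 CPM [50.2 to 96.4] in cluster 11 and 85.5 CPM [70.1 to 103] in cluster 2 in replicate 1, with overlapping intervals, but at 86.7 CPM [72.5 to 103] and 15.1 CPM [4.12 to 38.7] in replicate 2. Elsewhere Neb did not exceed 17.2 CPM. Among cells of cluster 2 with a hashtag margin of at least 20, Neb had 0 UMIs in the 23 cells of replicate 1, which allows up to 43.6 CPM, and 1 UMI in the 51 cells of replicate 2. Cluster 11 kept 63.7 and 101 CPM of Neb at that margin. Capg was at 944 CPM [865 to 1029] and 648 CPM [608 to 690] in cluster 11, at 737 and 597 CPM in cluster 2, and at 112 to 384 CPM elsewhere, with overlapping intervals of the 2 Treg-like clusters in replicate 2.

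**Figure D2:**
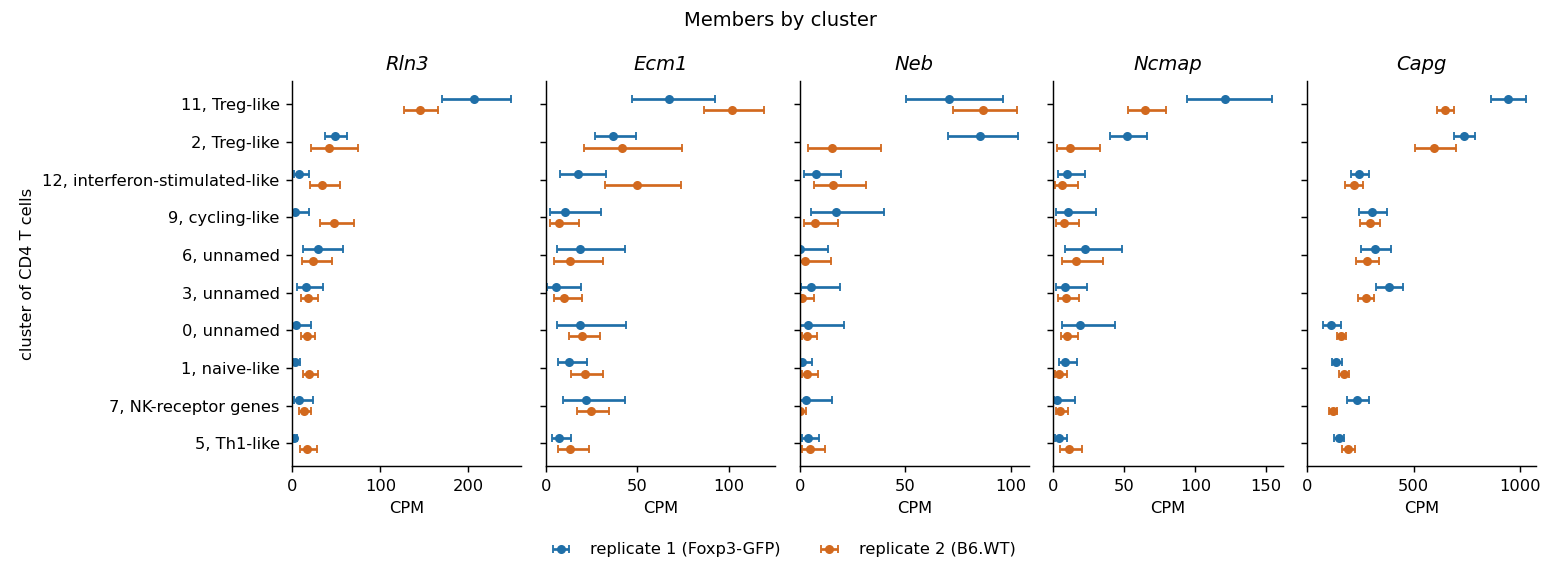
CPM of each gene (x axes, each with its own scale from 0) in CD4 T clusters of at least 30 cells in each replicate (y axis), replicate 1 in blue and replicate 2 in orange, with exact 95% counting intervals. Treg-like cluster 11 stands apart for Rln3 (206 and 145 CPM) and Ncmap (121 and 64.8 CPM), while Neb in cluster 2 is at 85.5 CPM in replicate 1 and 15.1 CPM in replicate 2.

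Inside the Treg-like clusters, cells without a Foxp3 UMI also carried the 5 genes. In those cells Rln3 was at 99.6 and 102 CPM, against 4.76 and 16.0 CPM in Foxp3-negative cells of the other CD4 T clusters. Neb was at 61.5 and 82.2 CPM against 4.28 and 2.96 CPM, and Ncmap at 56.7 and 55.7 CPM against 7.85 and 6.70 CPM. Ecm1 was at 35.2 and 65.0 CPM against 10.5 and 15.9 CPM, and Capg at 751 and 545 CPM against 184 and 178 CPM. At hashtag margins of at least 20, the levels inside these clusters in replicate 1 were 223 CPM for Rln3, 97.9 CPM for Ncmap and 33.8 CPM for Neb (10 UMIs), and in replicate 2 they were 110, 56.9 and 74.6 CPM. Each of the 5 genes stayed higher inside than outside at that margin in both replicates. Because the 5 genes helped to form the clusters, a higher level inside was partly built in and is a description at any margin. The 2 Treg-like clusters were also unlike: in replicate 2, Foxp3-negative cells of cluster 2 had Neb and Ncmap at 10.9 CPM each, from 2 UMIs each. Cells with a Foxp3 UMI outside the Treg-like clusters had Neb at 4.88 and 10.4 CPM, below the Foxp3-negative cells inside them, and Rln3 at 39.0 and 63.7 CPM, Ncmap at 24.4 and 14.3 CPM and Capg at 620 and 331 CPM were below as well. Ecm1 was the exception in replicate 1, at 43.9 CPM outside from 9 UMIs, against 35.2 CPM inside, and in replicate 2 it was at 50.7 CPM outside. In cluster 11 of replicate 1, Rln3 was at 143 CPM [101 to 197] in cells with a Foxp3 UMI and 262 CPM [207 to 327] in cells without, and in replicate 2 at 158 CPM [134 to 186] and 123 CPM [95.6 to 155], so the order of the 2 turned between the replicates.

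Ikzf2, Ctla4 and Klrg1 split the cells by other Treg genes. These splits belong to the rule that chose the genes, so they too are given with no test. Among Foxp3-negative cells, an Ikzf2 UMI went with Rln3 at 80.5 CPM against 4.57 CPM without it in replicate 1 and 65.3 versus 13.2 CPM in replicate 2. A Ctla4 UMI went with Neb at 32.7 versus 5.94 CPM and 41.2 versus 6.74 CPM. A Klrg1 UMI went with Neb at 46.6 versus 12.4 CPM and 54.8 versus 8.58 CPM. Among Foxp3-negative cells, each of the 5 genes was higher with the UMI in each of these 3 splits and both replicates. Among Foxp3-positive cells, Ecm1 by Ctla4 in replicate 1 was the exception, at 56.3 versus 60.6 CPM. At margins of at least 20, Rln3 by Ikzf2 in Foxp3-positive cells of replicate 1 was at 83.9 versus 89.1 CPM. The closest Foxp3-negative pair was Ecm1 by Klrg1 in replicate 2, at 23.8 versus 20.9 CPM. At margins of at least 20 that pair was at 17.8 versus 18.0 CPM, the only Foxp3-negative pair not higher with the UMI. In Foxp3-negative cells Neb by Ctla4 was then at 8.82 versus 5.81 CPM in replicate 1, from 9 and 18 UMIs with overlapping intervals. In replicate 2 it was at 29.8 versus 3.30 CPM. Neb by Klrg1 was at 15.4 versus 5.96 CPM and 26.7 versus 4.94 CPM, and Rln3 by Ikzf2 at 85.0 versus 4.84 CPM and 66.8 versus 11.54 CPM.

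Counting how many of Ikzf2, Ctla4 and Klrg1 a Foxp3-negative cell held, from 0 to 3, Rln3 went from 2.63 through 20.5 and 73.3 to 164 CPM in replicate 1 and from 12.6 through 37.7 and 93.1 to 99.3 CPM in replicate 2. Neb went from 4.50 through 16.3 and 36.6 to 91.3 CPM, and from 4.4 through 11.2 and 63.6 to 137 CPM. The cells with all 3 were few, 34 and 22, and deeper, with a median of 4825 and 2909 UMIs against 2910 and 1662 in cells with none. Ncmap went from 6.38 to 67.0 CPM in replicate 1 and in replicate 2 from 6.91 to 61.3 CPM at 2 genes and 49.6 CPM at 3. Ecm1 went from 11.3 to 79.1 CPM and from 14.7 to 49.6 CPM, and Capg from 189 to 852 CPM and from 171 to 658 CPM. In Foxp3-positive cells the counts at 0 were small, 18 cells in replicate 1, and Neb was there at 72.6 CPM from 4 UMIs against 7.32 CPM in the 210 such cells of replicate 2.

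**Figure D3:**
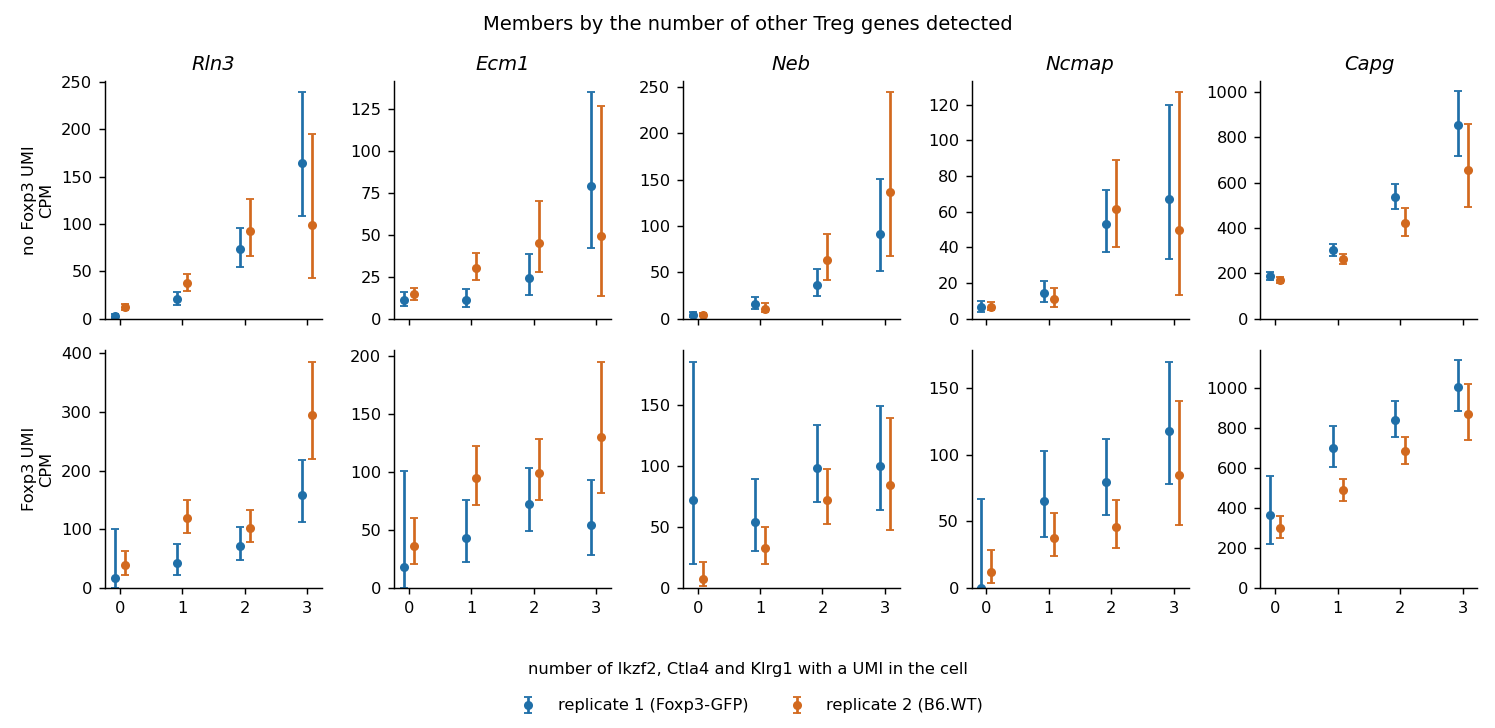
CPM of each gene (y axes from 0) by how many of Ikzf2, Ctla4 and Klrg1 had a UMI in the cell (x axis), in cells without a Foxp3 UMI (upper row) and with one (lower row), with exact 95% counting intervals; replicate 1 is blue and replicate 2 orange. In the upper row Rln3 runs from 2.63 to 164 CPM in replicate 1 and from 12.6 to 99.3 CPM in replicate 2.

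The hashtag margin moved with the levels. In Foxp3-negative cells Neb was at 55.1 CPM at margins of 2 to 5 and 6.55 CPM at margins of at least 20 in replicate 1, and at 22.4 and 6.15 CPM in replicate 2. Capg was at 546 and 238 CPM in replicate 1 and at 257 and 205 CPM in replicate 2. Of the Foxp3-negative cells of replicate 1 with a TRB chain, 44.9% had 2 chains at the small margin and 4.28% at the large one, and their part in these levels was not tested. In Foxp3-positive cells Rln3 was at 92.9 and 85.4 CPM at the small and large margin in replicate 1 and at 77.8 and 139 CPM in replicate 2. At margins of at least 20 the mean log2 ratio between cells with and without Foxp3 was 3.04 for Neb (SD 0.08, n = 2), 2.41 for Rln3 (SD 0.46), 2.29 for Ncmap (SD 0.04), 2.22 for Ecm1 (SD 0.19) and 1.70 for Capg (SD 0.25), each above its value over all cells. At that margin 4.13% of 10023 genes were called with the block.

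**Figure D4:**
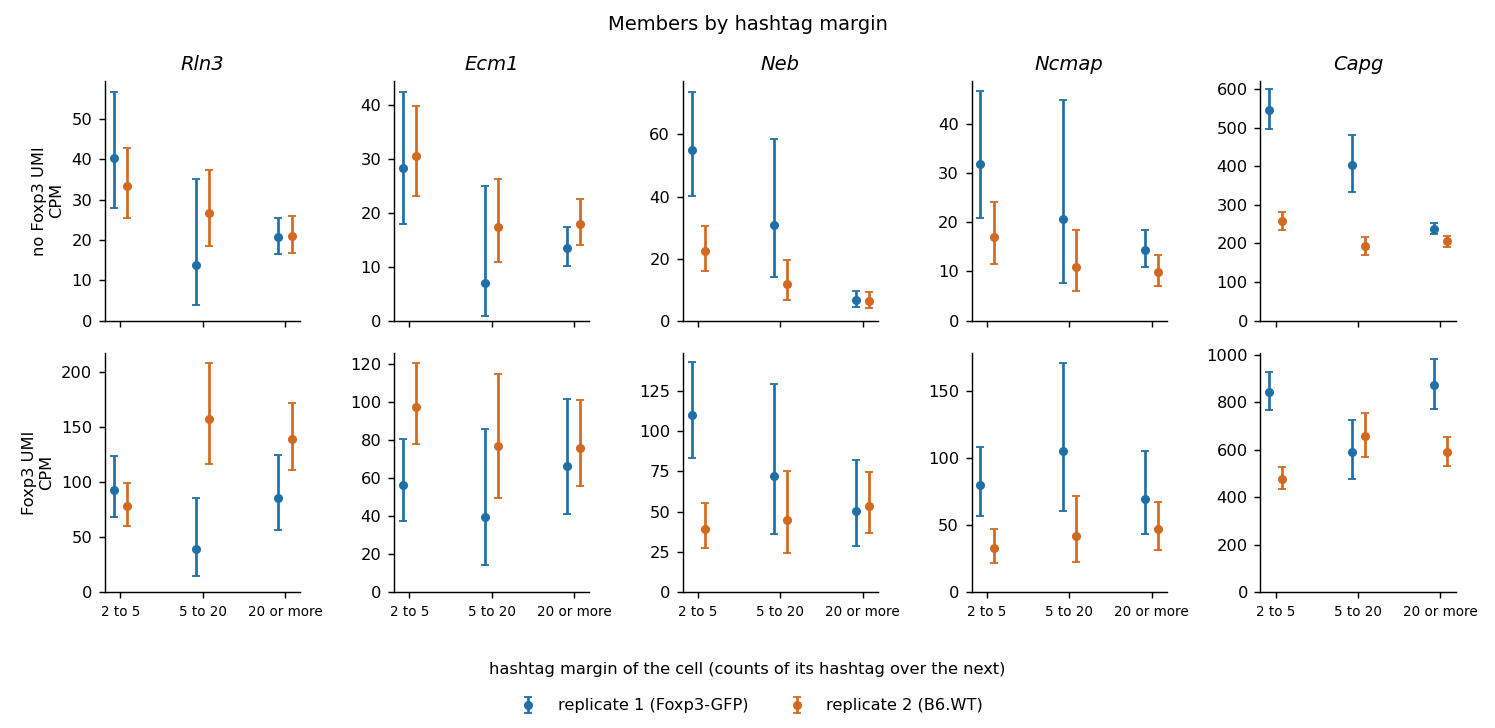
CPM of each gene (y axes from 0) by hashtag margin of the cell (x axis, 3 classes), without a Foxp3 UMI (upper row) and with one (lower row), with exact 95% counting intervals; replicate 1 is blue and replicate 2 orange. Neb in cells without Foxp3 is at 55.1 and 22.4 CPM at the small margin and at 6.55 and 6.15 CPM at the large one.

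Markers of other cell types were compared between the same groups. Schwann-cell markers, 5 genes, summed to 79.2 versus 121 CPM in cells with and without Foxp3 in replicate 1. In replicate 2 they summed to 122 versus 141 CPM. Most of each sum was Mbp (75.1 versus 112 CPM and 120 versus 139 CPM), so the sums mainly follow that 1 gene. The defining gene Sox10 was near the floor in both groups, with 0 UMIs in cells with Foxp3 and 1 UMI in cells without, in each replicate. Fibroblast markers, 5 genes, summed to 32.5 versus 40.0 CPM and 1.12 versus 2.23 CPM. B-cell markers, 6 genes, summed to 477 versus 229 CPM and 517 versus 311 CPM, most of it Ighm (389 versus 197 CPM and 468 versus 292 CPM). Igkc was at 73.1 versus 27.4 CPM and 28.5 versus 6.13 CPM, and Cd79b at 14.2 versus 3.06 CPM and 17.3 versus 7.66 CPM. Myeloid markers, 7 genes, summed to 436 versus 349 CPM and 405 versus 304 CPM. NK or ILC markers, 6 genes, were lower with Foxp3, at 42.6 versus 74.8 CPM and 72.0 versus 180 CPM, and red cell markers, 4 genes, were at 4.06 versus 6.12 CPM and 4.46 versus 121 CPM. CD8 T markers, 2 genes, were at 12.2 versus 26.0 CPM and 19.0 versus 10.5 CPM, and endothelial markers, 5 genes, at 70.0 versus 73.5 CPM and 82.6 versus 94.9 CPM. Mast cell and neutrophil markers did not exceed 13.8 CPM in any group. The part of RNA from these cell types in the levels of the 5 genes was not tested.

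The tests used splits by genes outside the rule, all within CD4 T cells without a Foxp3 UMI. The rule had already read the 5 genes in these same cells by Ikzf2, Ctla4 and Klrg1. The splits are therefore not independent of the choice of genes, and calls of the 5 genes in them are no independent support. Il2ra and Tnfrsf4 are receptors common on Treg cells and on activated T cells, and Ifng is the Th1 cytokine gene. Counts were summed over cells with and without a UMI of the splitting gene, and edgeR compared the sums of both replicates. Without the replicate as a block, 0% of genes were called in each of the 3 splits. For Il2ra 229 of 10263 genes had an unadjusted p under 0.05 and DESeq2 called 3, for Tnfrsf4 344 of 10225 and 20, and for Ifng 308 of 10318 and 9. Rln3 by Tnfrsf4 was the only one of the 5 genes that DESeq2 called in these splits (adjusted p = 0.00934). The unblocked edgeR test called none of the 5 genes in these splits, with 5 of them at an unadjusted p under 0.05 for Il2ra and for Tnfrsf4 and 1 for Ifng. Without the filter on low counts, unblocked edgeR called 0.252% of 20603 genes by Il2ra, with Rln3, Neb and Ecm1 among them, 0.568% by Tnfrsf4, with all of the 5 but Ecm1, and 0.248% by Ifng, with none of the 5. Each pair of sums comes from the same library, so the block was also fitted, which leaves 1 residual degree of freedom per gene before pooling across genes. Its p-values rest on a dispersion pooled across genes more than on a gene's own spread between the 2 replicates. Very small values therefore do not measure how closely the replicates agree, and all of them hold for these samples only.

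Each of the 5 genes was higher with a Tnfrsf4 UMI in both replicates. Rln3 was at 56.7 CPM with a Tnfrsf4 UMI and 6.09 CPM without in replicate 1, and at 52.3 versus 16.1 CPM in replicate 2. Ncmap was at 35.9 versus 7.84 CPM and 23.6 versus 7.97 CPM, and Neb at 27.5 versus 9.29 CPM and 28.1 versus 5.75 CPM. With the block, edgeR called all 5 genes higher, where 3.1% of 10225 genes were called and 1.88% were called higher. The log2 differences from edgeR were 2.19 for Rln3 (SE 0.27, adjusted p = 0.00105), 1.90 for Neb (SE 0.25), 1.84 for Ncmap (SE 0.24), 1.16 for Ecm1 (SE 0.19, adjusted p = 0.00860, the highest of the 5) and 1.12 for Capg (SE 0.08). Their median was 1.84, beside -0.01 over all genes tested.

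At hashtag margins of at least 20, edgeR with the block called 4.48% of 9750 genes by Tnfrsf4 and 4 of the 5. In that edgeR fit Rln3 differed by 2.35 (SE 0.25, adjusted p = 7.55e-19), and Ecm1, by 0.82 (SE 0.31, adjusted p = 0.127), did not pass. With each cell thinned to 1000 UMIs, edgeR with the block called 2.3% of 7959 genes and all 5. Those sums took cells as Foxp3-negative after thinning, and 117 and 276 of them had held a Foxp3 UMI before. With only cells that held none at full depth (1506 and 3197 thinned cells), 0.989% of 7786 genes were called, with Rln3 at 2.17 (SE 0.33, edgeR adjusted p = 0.000318), Ncmap at 1.80 (SE 0.43) and Capg at 1.10 (SE 0.11), while Neb at 1.49 (SE 0.48, adjusted p = 0.2202) and Ecm1 at 0.91 (SE 0.46, adjusted p = 0.608) did not pass. With the NK or ILC-like cluster left out, edgeR with the block called 4.09% of genes and all 5. Tnfrsf4-positive cells lay in the Treg-like clusters more often, 36.9% against 7.44% in replicate 1 and 27.5% against 4.92% in replicate 2. Whether Tnfrsf4 goes with these genes outside those clusters was not tested.

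Il2ra split the cells in the same direction. Rln3 was at 77.0 CPM with an Il2ra UMI and 15.4 CPM without in replicate 1 and at 44.6 versus 22.2 CPM in replicate 2. Ecm1 was at 29.6 versus 13.2 CPM and at 54.4 versus 16.1 CPM. Ncmap differed least in replicate 2, at 16.3 versus 11.2 CPM. With the block, edgeR called all 5 higher, where 2.1% of 10263 genes were called and 1.68% called higher, with log2 differences of 1.72 for Neb (SE 0.30), 1.59 for Rln3 (SE 0.22), 1.51 for Ecm1 (SE 0.25), 1.34 for Ncmap (SE 0.30, adjusted p = 0.000863, the highest of the 5) and 0.87 for Capg (SE 0.11). At margins of at least 20, where 0.267% of 9732 genes were called, edgeR with the block called none of the 5. An unadjusted p under 0.05 was found for 4 of them and for 700 of the 9732 genes. The lowest adjusted p in that edgeR fit was 0.206 for Capg at a log2 difference of 0.54 (SE 0.13). There Rln3 was at 1.48 (SE 0.38), Ncmap at 1.34 (SE 0.46), Ecm1 at 1.25 (SE 0.37) and Neb at 0.86 (SE 0.62). With thinned cells 0.373% of 8051 genes were called, Capg and Ecm1 among them. With thinned cells that held no Foxp3 UMI at full depth, edgeR with the block called 0.103% of 7758 genes and none of the 5. There 3 of the 5 and 451 of the 7758 genes had an unadjusted p under 0.05. In that edgeR fit Ecm1 was at 2.08 (SE 0.53, adjusted p = 0.0552), Rln3 at 1.35 (SE 0.56) and Capg at 0.74 (SE 0.20). Neb was at 0.47 (SE 0.82) and Ncmap at 0.20 (SE 0.84). With the NK or ILC-like cluster left out, 2.33% were called and all 5 genes. Il2ra-positive cells had a margin under 5 in 29.2% against 7.74% of cells in replicate 1 and 34.0% against 17.7% in replicate 2. They lay in the Treg-like clusters in 55.3% against 11.4% of cells and in 22.1% against 8.23%. Whether Il2ra goes with the 5 genes outside those clusters was not tested.

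The Ifng split ran the other way for all 5 genes. Rln3 was at 7.08 CPM with an Ifng UMI and 27.1 CPM without in replicate 1 and at 15.2 versus 27.3 CPM in replicate 2. Capg was at 244 versus 307 CPM and 202 versus 219 CPM. With the block, edgeR called 6% of 10318 genes, 2.3% lower, and of the 5 genes Rln3, which fell by 1.24 (SE 0.28, adjusted p = 0.000327), and Capg, which fell by 0.24 (SE 0.08, adjusted p = 0.0378). The differences of Neb (-0.80), Ncmap (-0.62) and Ecm1 (-0.62) did not pass. At margins of at least 20, where 4.67% of 9693 genes were called, edgeR with the block called Rln3 alone of the 5, at -2.0 (SE 0.41, adjusted p = 0.00126). Ncmap was at -1.55 (SE 0.50), Neb at -1.41 (SE 0.67) and Ecm1 at -0.87 (SE 0.39), all 3 at an unadjusted p under 0.05. So were 1383 of the 9693 genes. With thinned cells, where 0.436% were called, edgeR called none of the 5, with Rln3 at -2.59 (SE 0.81, adjusted p = 0.168). With thinned cells that held no Foxp3 UMI at full depth, where 0.419% were called, it also called none, with Rln3 at -2.18 (SE 0.86). With the NK or ILC-like cluster left out, 6.82% were called, Rln3 and Capg among them. Ifng-positive cells lay in the Treg-like clusters in 11.2% against 16.7% of cells and in 3.37% against 10.8%. Whether the responses to the 3 splits differ from each other was not tested.

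**Figure D5:**
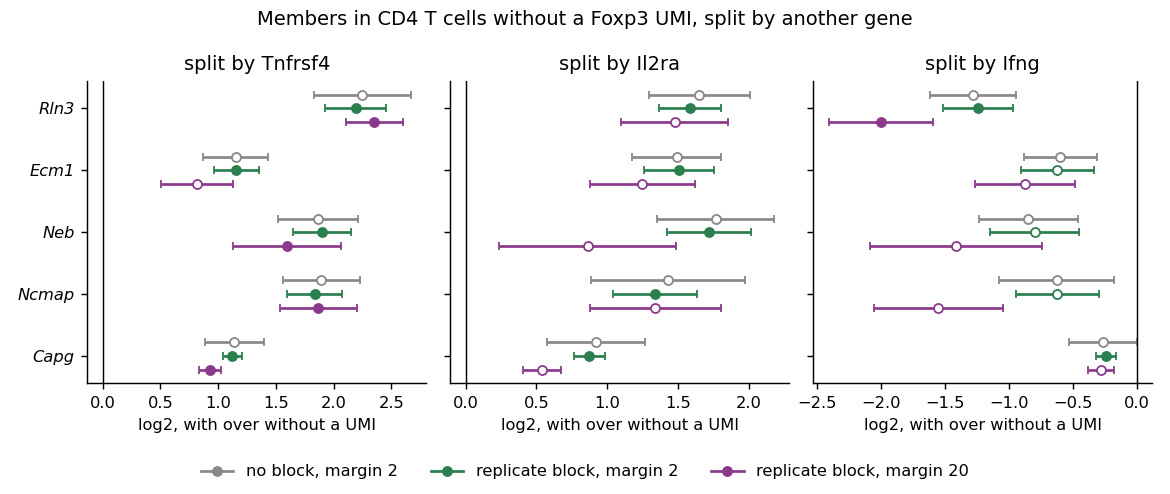
Log2 difference of each gene (x axes) between Foxp3-negative CD4 T cells with and without a UMI of Tnfrsf4, Il2ra or Ifng, from edgeR without a block (grey), with the replicate as a block (green) and with the block at hashtag margins of at least 20 (purple); bars are 1 standard error and filled points passed an adjusted p of 0.05. Rln3 by Tnfrsf4 lies at 2.19 with the block and at 2.35 at the larger margin, and by Ifng at -1.24 and -2.0.

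Cells with 1 of the sparse genes held another of them more often than CD4 T cells did in general. In replicate 1, 30 of 91 Rln3-positive cells (33.0%) also held Ncmap, which was in 6.90% of all CD4 T cells, and 24 (26.4%) held Neb, which was in 6.29%. In replicate 2, 31 of 234 Rln3-positive cells (13.2%) held Ncmap, in 3.29% of all cells, and 25 (10.7%) held Neb, in 2.90%. Of 113 Neb-positive cells of replicate 1, 35 (31.0%) held Ncmap, and of 124 in replicate 2, 20 (16.1%). With each cell thinned to 1000 UMIs, Ncmap was found in 5 of 43 Rln3-positive cells of replicate 1 (11.6%, where 2.18% of all cells held it) and 6 of 108 in replicate 2 (5.56%, where 1.56% did). Neb was then found in 1 of 43 Rln3-positive cells of replicate 1 (2.33%, where 2% of all cells held it) and 6 of 108 in replicate 2 (5.56%, where 1.30% did), so the excess of Neb in replicate 1 was not detectable at equal depth. With 0, 1, 2 and 3 of Rln3, Ecm1, Neb and Ncmap detected, a Foxp3 UMI was found in 6.59%, 22.6%, 57.6% and 72.2% of cells in replicate 1, and in 12.3%, 35.9%, 63.0% and 70.6% in replicate 2. Only 18 and 17 cells held 3 of them, and 4 and 1 cells held all 4, of which 2 and 1 had a Foxp3 UMI. Median depth moved along with this number, from 2916 to 6416.5 UMIs in replicate 1 and from 1678 to 2863 UMIs in replicate 2. Hashtag margins under 5 were found in 8.14%, 34.8%, 45.5% and 55.6% of cells with 0 to 3 of them in replicate 1. In replicate 2 the shares were 19.6%, 37.1%, 45.7% and 29.4%. The part of barcodes with more than 1 cell in this was not tested.

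T-cell receptor chains were not read in choosing the genes. The genes were chosen beside Foxp3, though, and cells with Foxp3 had lower clonotype shares too (below), so these shares are not independent of the choice. The intervals count cells of 1 clonotype as separate draws, which they are not. Among cells with exactly 1 TRB chain, 5 of 74 Ncmap-positive cells of replicate 1 (6.76% [2.23 to 15.1]) lay in clonotypes of at least 2 cells, against 16.3% [14.3 to 18.4] of the others. In replicate 2 it was 2 of 65 (3.08% [0.375 to 10.7]) against 9.92% [8.78 to 11.2]. Rln3-positive cells had 11.54% against 15.9% and 7.91% against 9.86%, and Capg-positive cells 13.0% against 17.6% and 8.21% against 10.5%. The share was lower with each of the 5 genes in both replicates, but for each of them the intervals of cells with and without the gene overlapped. Foxp3-positive cells themselves had 6.19% [2.53 to 12.3] against 16.6% [14.6 to 18.8], with intervals that did not overlap, and in replicate 2 6.72% [4.44 to 9.69] against 10.3% [9.05 to 11.6].

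Likeness of pattern was measured as Pearson's r of log2(CPM + 10), centred within replicate, over 20 sums (10 CD4 T clusters in 2 replicates), among 5882 genes with a mean of at least 20 CPM. These sums share cells and libraries, and the values are a description. Rln3 was most like Ncmap (r = 0.88), Tnfrsf18 (0.87) and Capg (0.86). Ncmap was most like Sdc4 (0.92), Rln3 (0.88) and Ikzf2 (0.87), and Neb most like Foxp3 (0.87), Ctla4 (0.86) and Klrg1 (0.84). Ecm1 was most like Foxp3 (0.86), Ighm (0.79) and Pim1 (0.75), and Capg most like Rln3 (0.86), Ebp (0.81) and Tnfrsf18 (0.80). Tnfrsf18 encodes GITR, a receptor high on Treg cells, Sdc4 a membrane proteoglycan, Pim1 a kinase and Ebp an enzyme of cholesterol synthesis.

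Relatives of the 5 genes were read in the Foxp3 comparison, where the 5.56% of genes called with the block is the background and unblocked edgeR called none. Of 8 relaxin-family peptides and receptors, 1 was tested, Insl6, which did not pass (25.4 versus 27.5 CPM and 18.4 versus 19.6 CPM). The relaxin receptors Rxfp1, Rxfp2, Rxfp3 and Rxfp4 had 0 UMIs in all 4 groups of cells, and Insl5 had 9 UMIs, all in replicate 1 cells without Foxp3. Of 11 gelsolin-family and capping genes, 7 were tested and 1 was called, Vill, a villin-like actin regulator, which rose from 6.50 to 16.2 CPM and from 4.32 to 16.7 CPM (log2 1.63, SE 0.35, edgeR with block adjusted p = 0.000119). Vill also passed at margins of at least 20, with an adjusted p of 0.0450 in edgeR with the block. The median log2 difference of the 7 was 0.01, beside -0.01 over all genes.

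Of 12 nebulin-family and thin-filament genes, 7 were tested and none was called with the block in edgeR. An unadjusted p under 0.05 was found for 2 of the 7 and for 1522 of all 10795 genes. The highest, the tropomyosins Tpm3 and Tpm4, were at 476 versus 470 CPM and 268 versus 191 CPM in replicate 1, and at 466 versus 449.7 CPM and 234 versus 211 CPM in replicate 2. Of 8 myelin genes, 2 were tested and Mbp, myelin basic protein, fell by 0.39 on the log2 scale (SE 0.13, edgeR with block adjusted p = 0.0441), opposite in sign to Ncmap, with 75.1 versus 112 CPM and 119.97 versus 139 CPM. Of 12 matrix genes, 7 were tested and Timp2, a metalloproteinase inhibitor, rose from 24.3 to 50.8 CPM and from 12.4 to 29.6 CPM (log2 1.12, SE 0.22, edgeR with block adjusted p = 1.27e-05). At margins of at least 20, Mbp, at -0.39 (SE 0.16, adjusted p = 0.225), and Timp2, at 0.82 (SE 0.39, adjusted p = 0.330), did not pass in edgeR with the block.

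Neighbouring genes were checked because adjoining genes can share reads. Il27ra, the interleukin-27 receptor chain, starts 339 bases downstream of the Rln3 3′ end on the same strand and was at 97.5 versus 96.8 CPM in cells with and without Foxp3 in replicate 1 and 148 versus 127 CPM in replicate 2 (log2 0.10, SE 0.13, edgeR with block adjusted p = 0.839). Tars2, 406 bases from Ecm1, was at 21.3 versus 17.4 CPM and 34.6 versus 24.1 CPM and did not pass in edgeR with the block (adjusted p = 0.426). Gm13522, an antisense gene overlapping Neb, had 4 and 2 UMIs in cells with Foxp3 and 5 and 1 in cells without, and the use of strand in counting was not given in the sources used here. Of 15 neighbours, 7 were tested and 2 were called. Arl5a, a small GTPase gene 19476 bases from Neb, rose from 30.6 to 101 CPM and from 24.0 to 48.5 CPM (log2 1.34, SE 0.17, edgeR with block adjusted p = 1.94e-12), and passed at margins of at least 20 as well (adjusted p = 0.000123). Adamtsl4, 46229 bases from Ecm1, rose from 0.574 to 5.08 CPM and from 2.23 to 6.14 CPM (log2 1.83, SE 0.59, edgeR with block adjusted p = 0.0392), from 5 and 11 UMIs with Foxp3 and 3 and 16 without, and was at 2.40 (SE 0.86, adjusted p = 0.103) in the same test at the larger margin.

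Outside CD4 T cells the genes had other sources. Ecm1 was at 714 CPM in the 106 fibroblast-like cells of replicate 1 (493 of the 669 Ecm1 UMIs of that sample) and at 245 CPM in the 33 of replicate 2. When all cells of the hashtag were kept, the Ecm1 difference by Foxp3 in replicate 1 went to -0.21 on the log2 scale. Ncmap had 27 UMIs in 7 Schwann-like cells of replicate 2 (1652 CPM) and 0 in the 6 of replicate 1, which allows up to 114 CPM. Rln3 had 0 UMIs in the fibroblast-like cells of replicate 1 and 1 in those of replicate 2. In the hippocampal libraries, 1 per genotype and so with no test, Rln3 had 0 UMIs in 6863 and 5691 cells, which allows up to 0.0610 and 0.0894 CPM (3 counts), and Foxp3 had 0 as well.

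Ecm1 in the hippocampus lay in vascular classes. It was at 80.5 CPM [65.2 to 98.3] in endothelial-like cells of the Foxp3-DTR- library and 87.0 CPM [66.5 to 112] in those of the Foxp3-DTR+ library, at 68.6 and 74.0 CPM in pericyte or smooth muscle-like cells, and at 119 and 95.7 CPM in fibroblast-like cells, beside 3.52 and 3.93 CPM over all cells. Capg was at 66.2 CPM [52.4 to 82.5] and 82.7 CPM [62.8 to 107] in endothelial-like cells and at 2.87 and 3.52 CPM over all cells. The intervals of the 2 libraries overlapped in each of these classes. Ncmap was at 1.20 and 1.31 CPM and Neb at 0.305 and 0.447 CPM over all cells.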

How the data were processed

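RNA counts were deposited by the authors as raw UMI counts per gene and cell barcode, made with Cell Ranger 4.0.0 and 6.0.0 for the 2 meningeal replicates and 6.1.0 for the hippocampus, per the file headers; the submitters' processing notes name Seurat and mm10. The hashtag counts and T-cell receptor contigs were used as deposited; whether hashtag counts are reads or UMIs is not given in the sources used here. The labels' protocol names a 3' kit and the series design a 5' kit for the T cells. The sequence the labels give for replicate 1's hashtag differs from that of the same name in the deposited table, and the name was used.

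Barcodes were kept with at least 500 genes, mitochondrial UMIs under 10% (meninges) or 15% (hippocampus) and, in the meninges, a hashtag count of at least 10 that was at least 2 times the next. Meningeal libraries held 13402 and 33575 barcodes and 1964 and 4430 cells of the study's hashtag; 7 barcodes occurred in both. No doublet caller was run on the meninges, where hashtags were used; 242 and 158 hippocampal doublets were removed. Cells were clustered with Scanpy 1.11.5 (2000 variable genes, 30 components, 15 neighbours, Leiden resolution 1) and named from at least 3 markers raised 1.5-fold; clusters named for a cell type other than T, NK or ILC, or with CD4 T markers under 0.5 of their median over clusters, were left out of the T-cell comparisons, and an NK or ILC-like cluster stayed in. UMIs were summed per replicate and group and tested with edgeR 4.0.16 (quasi-likelihood, Benjamini-Hochberg adjustment over all genes tested); DESeq2 1.42.0 was an alternative. On simulated data for the Foxp3 comparison (10725 genes), the unblocked test recovered 0% of 2-fold and 81% of 4-fold changes, and the blocked test 81% and 100%. The blocked test also called 10 unchanged genes and the unblocked test 0. The simulation gave each gene a replicate effect shared by both groups and 1 fixed dispersion, so a gain from the block was built in. Both sums of a replicate come from 1 library, so replicate numbers pair them; over 10795 genes their deviations correlated at r = 0.72. Genes named besides the 5 are the splitting genes, in each family list those past an adjusted p of 0.05 and otherwise the 2 with the highest CPM, the neighbours, the 3 genes most alike per gene, and markers of other cell types. The members and lists were chosen with earlier results of these data known. A further planned split of the cells is not reported here.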

Additional observations from a re-analysis of the deposited data

How the results depend on the processing

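The replicate block, stricter hashtag margins and thinning changed how many genes were called more than they changed directions. With the replicate block the count of genes called went from 0 to 600 for Foxp3, 216 for Il2ra, 317 for Tnfrsf4 and 619 for Ifng. DESeq2 called 22, 3, 20 and 9 in the same order, and edgeR without a filter on low counts 141, 52, 117 and 51. The block at margins of at least 20 gave 414, 26, 437 and 453, and the block with thinned cells 105, 30, 183 and 35. The block without the NK or ILC-like cluster gave 535, 237, 413 and 690, and the block with thinned cells that held no Foxp3 UMI at full depth 8 for Il2ra, 77 for Tnfrsf4 and 33 for Ifng. These 4 settings were chosen after seeing the data. Without the block, Tnfrsf4 gave 1 with thinned cells. The mean log2 ratio by Foxp3 at margins of at least 5 was 2.27 for Rln3, 2.15 for Ecm1, 2.79 for Neb, 2.32 for Ncmap and 1.63 for Capg, and at margins of at least 20 it was 2.41 for Rln3, 2.22 for Ecm1, 3.04 for Neb and 1.70 for Capg. With at least 2 Foxp3 UMIs it was 2.37 for Rln3, 2.47 for Ecm1, 2.49 for Ncmap and 1.71 for Capg. Thinning gave 2.23 for Ecm1 and 1.84 for Neb, cells with exactly 1 TRB chain 2.31 for Ecm1 and 1.51 for Capg, and weighting cells equally 1.78 for Ecm1. Ecm1 fell to 0.82 with all cells of the hashtag, among them the Ecm1-rich fibroblast-like cells. The single-replicate ratios, which carry no test, spanned 1.82 to 2.17 for Rln3, 1.90 to 2.04 for Ecm1, 2.0 to 2.46 for Neb, 1.72 to 2.21 for Ncmap and 1.34 to 1.46 for Capg. The cause of these differences was not tested. Few UMIs per cell limit what single cells show of Rln3, Ecm1, Neb and Ncmap.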
